A study of Mus musculus with 4 samples.

Results

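The genes described are the interleukins and the interleukin receptors, taken as every gene of the array whose transcript accession maps to a mouse symbol made of Il and a number. The rule names 84 genes, of which 82 had at least 1 probe, among 23462 genes measured. By the known function of their proteins, 39 are interleukins, 40 are receptor chains (membrane-bound, soluble or decoy), and 3 are neither: the IL-18 binding protein gene Il18bp, the enzyme gene Il4i1 and an antisense transcript. Il11ra2 and Il4i1b match the rule but no probe matched them. Interleukins are secreted proteins with which immune, stromal and parenchymal cells signal to each other. Most of their receptors pass the signal through JAK kinases and STAT factors, whereas the receptors of IL-1, IL-18 and IL-33 use MyD88 and IRAK kinases and those of the IL-17 family use the adaptor encoded by Traf3ip2. In liver, resident macrophages (Kupffer cells) are a major source of IL-1, IL-6, IL-10 and IL-18, and hepatocytes carry receptors for IL-1, IL-6 and IL-22, through which acute-phase proteins are induced.

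Liver RNA came from male mice on a C57BL/6 background aged 24 weeks, with both copies of Lpiat1 (Mboat7, an acyltransferase that places arachidonic acid into phosphatidylinositol) floxed in all groups. F/F mice carried no Cre, and LKO mice carried Alb-Cre, in which the albumin promoter drives Cre in hepatocytes. The paper calls the knockout hepatocyte-specific, and the arrays do not show whether the other liver cells kept the gene. From 6 weeks of age the mice received chow (CE2) or a high-fat diet (HFD, HFD-60) for 18 weeks. Each of the 4 conditions was measured on 1 one-colour array, and whether that RNA was from 1 mouse or pooled from several is not given in the labels. There is thus no spread between mice, no test was possible, and every difference below compares 2 arrays and not 2 populations of mice.

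Levels are given as normalized intensity, the processed spot signal scaled so that every array has the same 75th percentile (246), and differences as log2 of the ratio of 2 arrays. The only error that could be measured was that between spots of 1 probe on the same array. The SD of the difference of 2 such spots was 0.340 log2 below an intensity of 30, 0.186 between 30 and 300, and 0.0750 above 300. A gene was called different where it was at least 2-fold higher or lower. Where it was well above background on only 1 of the 2 arrays, the bright array was set against the detection limit of the dim one or its own signal there, whichever was higher, which gives a lower bound written as "at least". A bound was kept only in the direction of the bright array, so its sign was fixed in advance. Between 53.0% and 57.0% of the spots on an array were well above background, and 41 to 48 of the 82 genes. Mboat7 itself read 1224, 994, 1105 and 916 on chow in F/F and LKO and then on HFD in F/F and LKO, with LKO minus F/F at -0.30 and -0.27. Further runs of 4 values keep this order. Mboat7 has 1 probe, and its small difference does not show how complete the deletion was. The paper reported LPIAT1 protein as depleted in LKO liver by western blot. The labelled tissue was borne out by hepatocyte markers such as Alb, well above background on all 4 arrays.

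Receptors were detected more often than their ligands. Of the 39 interleukins, 10 (25.6%) were well above background on all 4 arrays, 10 on 1 to 3 arrays, and 19 on none. Of the 40 receptor chains, 26 (65%) were well above background on all 4 arrays, 3 on 1 to 3, and 11 on none, beside 59.6% of all genes on all 4. The interleukins measured throughout were Il1b, Il1rn, Il18, Il33, Il15, Il22, Il17d, Il27, Il16 and Il34. Those on no array included the products of helper T cells Il2, Il5, Il13, Il17a and Il17f, and also Il10, Il12a and Il23a. A spot below this limit does not show that a transcript is absent from liver.

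Detection differed between families in the same way. All 5 receptors of the IL-17 family were measured on all 4 arrays, but only 1 of its 6 ligands, Il17d. In the common gamma chain family 7 of 10 receptors and 1 of 7 ligands, Il15, were measured throughout, and in the gp130 and IL-12 family 6 of 8 receptors and 1 of 7 ligands, Il27. The IL-1 family was the exception, with 4 of 10 ligands (the antagonist gene Il1rn among them) and 3 of 9 receptors. The number of interleukins well above background was 15 in F/F chow, 12 in LKO chow, 13 in F/F HFD and 17 in LKO HFD, and that of receptors was 27, 27, 29 and 29. All genes well above background numbered 14717, 14466, 14941 and 15377, also fewest in LKO chow and most in LKO HFD.

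**Figure D1:**
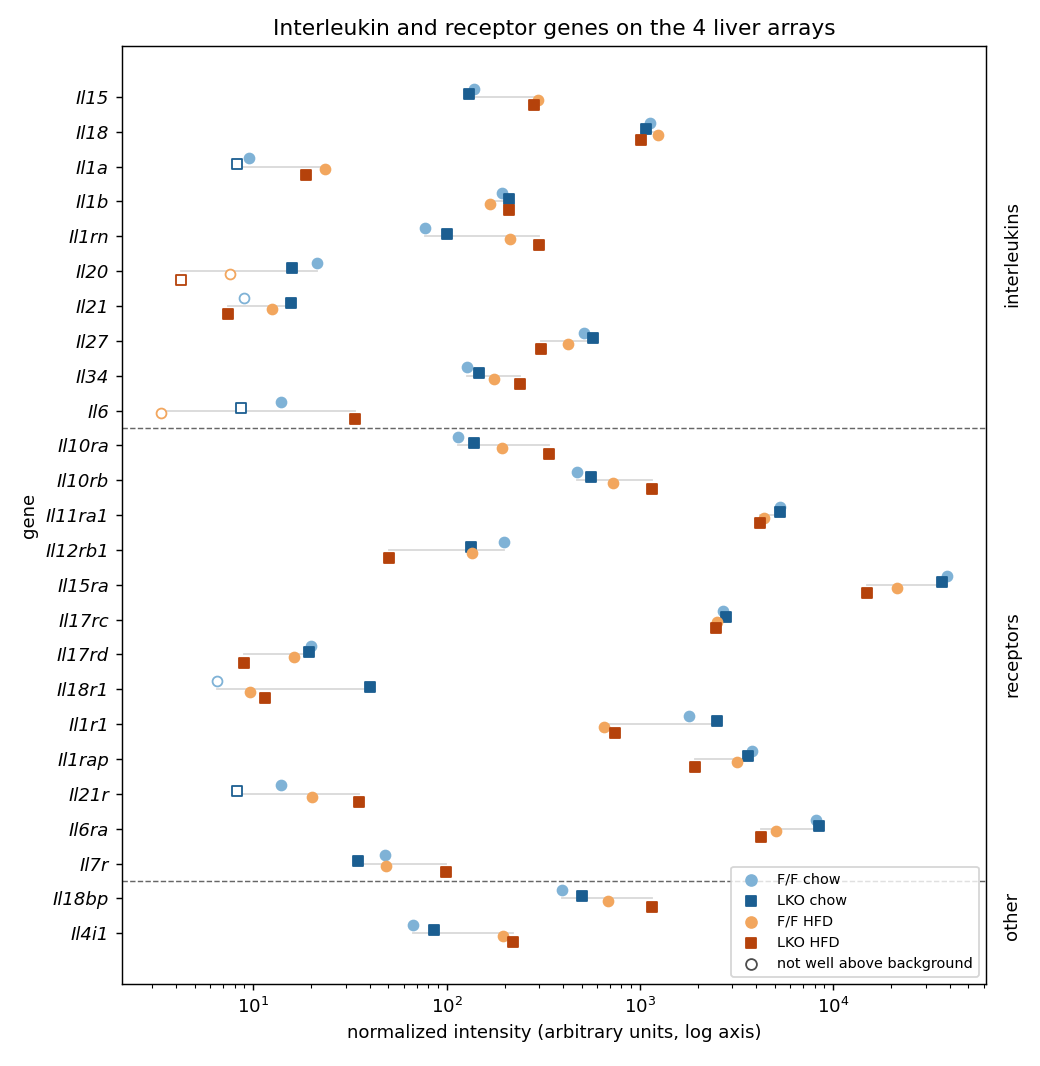
Normalized intensity (log axis, arbitrary units) of the 25 genes that were at least 2-fold different in some comparison or among the brightest of their class, on the 4 arrays. Filled symbols are well above background and open symbols are not. The genes Il6, Il20, Il21 and Il18r1 lie near the limit of detection. A level can be compared between arrays but not between genes.

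Upstream sequence is shown for 4 genes on which the results below turn and which have 1 listed start: Il4i1, higher on HFD in both genotypes, Il6ra, lower on HFD, and Il7r and Il6, higher in LKO than in F/F on HFD. Each is the 250 bases before the start in GRCm38.p6, from RefSeq, written along the gene's strand. Il4i1 is at chr7:44836038-44836287, Il6ra at chr3:89913197-89913446, Il7r at chr15:9529877-9530126 and Il6 at chr5:30012864-30013113. Capitals mark matches, on either strand, to GGANTTNCC (the NF-kB motif), TTCNNNGAA (STAT), GAGGAA (PU.1, a macrophage and lymphocyte factor) or TTGNGCAA (C/EBP).
Il4i1: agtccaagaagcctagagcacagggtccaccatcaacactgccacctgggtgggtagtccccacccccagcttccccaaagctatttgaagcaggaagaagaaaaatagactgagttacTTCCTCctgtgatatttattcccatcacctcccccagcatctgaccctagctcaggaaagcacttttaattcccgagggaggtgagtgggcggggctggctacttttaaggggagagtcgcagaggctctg
Il6ra: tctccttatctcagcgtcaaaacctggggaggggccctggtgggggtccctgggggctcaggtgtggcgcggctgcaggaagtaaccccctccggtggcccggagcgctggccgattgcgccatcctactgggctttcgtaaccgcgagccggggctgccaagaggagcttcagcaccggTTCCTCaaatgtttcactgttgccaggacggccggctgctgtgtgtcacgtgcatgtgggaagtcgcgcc
Il7r: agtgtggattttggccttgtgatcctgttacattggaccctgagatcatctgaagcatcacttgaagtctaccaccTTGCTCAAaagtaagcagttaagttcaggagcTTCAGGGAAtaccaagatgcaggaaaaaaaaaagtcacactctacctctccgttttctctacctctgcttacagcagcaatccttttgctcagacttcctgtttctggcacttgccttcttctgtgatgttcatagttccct
Il6: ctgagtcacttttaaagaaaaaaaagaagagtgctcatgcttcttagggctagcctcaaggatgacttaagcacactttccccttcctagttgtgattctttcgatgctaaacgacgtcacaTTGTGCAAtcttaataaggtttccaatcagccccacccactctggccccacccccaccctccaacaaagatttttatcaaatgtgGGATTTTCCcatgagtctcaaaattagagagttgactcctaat
Il6 held GGATTTTCC starting 43 bases before the start and TTGTGCAA at 128 bases, Il7r held TTCAGGGAA at 142 and TTGCTCAA at 174, and Il4i1 and Il6ra each held only TTCCTC, the reverse complement of GAGGAA, at 131 and 70 bases. Over all 32851 promoters of that table, 3.15% held the NF-kB letters, 7.02% the STAT letters, 23.3% the PU.1 letters and 2.61% the C/EBP letters. Of the 82 genes, 65 had an entry, with 80 starts in all, and the shares among these were 7.5%, 11.2%, 27.5% and 5%. No binding was measured, and a match describes letters only.

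HFD against chow gave the most genes past 2-fold, and the direction was mostly shared by the genotypes. In F/F mice 48 genes had a value, of which HFD was at least 2-fold higher in 4 and lower in 2 (12.5%). Of all genes, 5.21% were higher and 2.94% lower (8.15%). In LKO mice 10 of 47 were higher and 8 lower (38.3%), beside 8.12% and 4.07% of all genes (12.2%). The diet comparisons of F/F and of LKO use different arrays. Among the 38 genes well above background on all 4, 17 were higher on HFD in both genotypes, 15 lower in both and 6 opposite, so 84.2% went the same way, beside 76.6% of all genes. Il1rn, Il15 and Il4i1 were at least 2-fold higher in both, and Il1r1 at least 2-fold lower in both (10.5% of the 38, beside 3.81% of all genes). Over the 38, the median diet difference of the 10 interleukins was 0.29 in F/F and 0.27 in LKO, that of the 26 receptors was -0.18 and -0.03, and that of all genes measured on every array was -0.03 and -0.09.

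**Figure D2:**
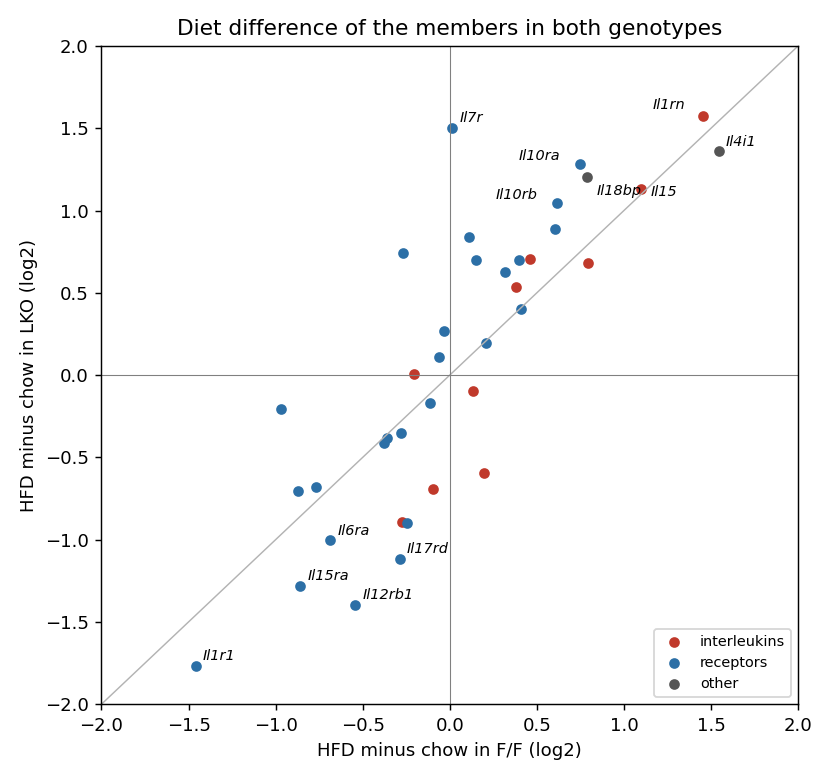
HFD minus chow (log2) in F/F (x axis) against the same in LKO (y axis) for the 38 genes well above background on all 4 arrays, with names where either difference reached 2-fold. Il1rn, Il4i1 and Il15 sit in the upper right corner, Il1r1 in the lower left, and Il7r is near 0 in F/F and near 1.5 in LKO.

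In the IL-1 family the antagonist was higher on HFD, the receptor lower, and the agonist IL-1 beta nearly level. Il1rn, which encodes the receptor antagonist, read 77.2 and 101 on chow (F/F, then LKO) and 212 and 299.7 on HFD. Both HFD arrays lay above both chow arrays, with a diet difference of 1.45 for F/F and 1.57 for LKO, and a second probe gave 1.31 and 1.17. Il1r1, the signalling receptor of IL-1, read 1798, 2513, 654 and 739 in the same order. HFD minus chow was -1.46 for F/F and -1.77 for LKO, the lowest values of the 38 genes. Il1b, the agonist released by activated macrophages, read 193, 209, 168 and 210 and differed by no more than 0.33 in any comparison. Il1a, the agonist held in cells until damage, was dim, at 9.47 in F/F chow and 23.4 in F/F HFD (1.31 higher), and at least 2-fold higher on HFD in LKO, where chow was not well above background. Under normexp background correction, another way of removing local background, the Il1a difference in F/F was 0.19.

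The co-receptor Il1rap, needed for signalling by IL-1, IL-33 and IL-36, read 3778, 3606, 3190 and 1932. The LKO HFD array was the lowest, at -0.90 against LKO chow and -0.72 against F/F HFD. A second probe for Il1rap gave -1.15 for diet in F/F and -0.55 in LKO, but 0.05 for LKO against F/F on HFD. The decoy receptor Il1r2, which binds IL-1 without signalling, read 60.9, 31.0, 67.5 and 50.3, with LKO minus F/F at -0.98 on chow and -0.42 on HFD. A second Il1r2 probe, well above background in LKO HFD only, gave a bound of 0.42 for LKO against F/F on HFD. Il33, an alarmin, read 44.0, 51.6, 76.4 and 82.8, higher on HFD by 0.80 and 0.68. A second Il33 probe gave -0.50 for diet in F/F.

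IL-18 was likewise nearly level while its binding protein was higher on HFD. Il18, an inducer of interferon gamma, read 1130, 1081, 1239 and 1009, within 0.30 in every comparison. Il18bp, which encodes a secreted protein that neutralises IL-18, read 397, 499, 687 and 1148. LKO was above F/F on each diet and HFD above chow, with a diet difference of 0.79 for F/F and 1.20 for LKO and a genotype difference of 0.74 on HFD. A second Il18bp probe gave 0.42, 1.26 and 0.70, but -0.13 for LKO against F/F on chow, where the first gave 0.33. Among the genes that process and release IL-1 and IL-18, 6 of 6 with a value were higher in LKO than in F/F on HFD (median 0.45). All 6 were also higher on HFD in LKO (median 0.83), but Aim2 and Nlrc4 only as bounds, whose sign was fixed. Only Aim2, a DNA sensor, reached 2-fold, as a bound in LKO on HFD against LKO on chow. Nlrp3 was not well above background on any array.

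The ligand-binding chains for IL-6 and IL-15 were lower on HFD. Il6ra, the ligand-binding chain of the IL-6 receptor, read 8140 and 8461 on chow and 5063 and 4217 on HFD. Both HFD arrays were below both chow arrays, at -0.68 in F/F and at 2.01-fold lower in LKO. The LKO difference was under 2-fold in 4 of 7 alternative settings. The other 3, the value table and the filters, could not change the value of a gene measured on all 4 arrays. A second Il6ra probe gave -0.59 in F/F and -0.81 in LKO. Il6st, the shared signalling chain gp130, read 848, 962, 981 and 1099, with diet differences of 0.21 and 0.19, while a second Il6st probe gave -0.38 and -0.26. Lifr, a gp130 partner for other cytokines of the family, was 4173 and 4321 on chow against 1337 and 918 on HFD.

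Il15ra, which presents IL-15 to neighbouring cells, read 38698, 36343, 21347 and 14979. HFD minus chow was -0.86 in F/F and -1.28 in LKO, and the other 2 probes gave -1.0 and -0.81 in F/F and -1.12 and -1.26 in LKO. Il15, a survival factor of natural killer (NK) and memory T cells, went the other way, at 138 and 130 on chow and 297 and 284 on HFD. The diet difference of 1.10 in F/F and 1.13 in LKO was matched by 1.60 and 0.89 on a second probe, and the genotypes differed by at most 0.09 on the probe used and by 0.33 and -0.39 on the second. Il4i1, a secreted amino acid oxidase made by macrophages, dendritic cells and B cells, read 67.0, 86.0, 195 and 221, higher on HFD by 1.54 and 1.36. Under normexp these differences were 0.91 and 0.81 for Il15 and 0.96 and 0.76 for Il4i1.

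The chains of the IL-10 receptor were higher on HFD in both genotypes. Il10ra, found mainly on leukocytes, read 115, 138, 193 and 337, and Il10rb, shared with the receptors of IL-22 and of interferon lambda, read 472, 557, 723 and 1151. Both had the same order of arrays, with diet differences of 0.75 and 1.28 for Il10ra and of 0.61 and 1.05 for Il10rb in F/F and LKO. Il10 itself was not well above background on any array. Il22ra1, the chain that gives hepatocytes their response to IL-22, read 118 in F/F chow and between 55.1 and 63.5 on the other arrays.

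Smaller diet differences ran through the other families. Il17ra, the common receptor of IL-17A and IL-17F, was 160 and 174 on chow and 94.0 and 109 on HFD. Il17rb, the receptor of IL-25, gave 0.41 and 0.40 for diet and 0.65 for LKO against F/F on both diets. A second, dimmer Il17rb probe gave a bound of -0.83 and a difference of -0.13 for diet and 0.17 for genotype on chow. Il17rc, the partner chain of Il17ra, differed by at most 0.17 on the probe used, and a dimmer probe gave -0.49 for diet in F/F and -0.36 for genotype on chow. Il34, a ligand of the macrophage receptor Csf1r, read 128, 148, 176 and 240, and Il16, a chemoattractant for CD4-bearing cells, read 45.9, 61.3, 59.7 and 88.8. Il3ra, the receptor of IL-3, read 250, 285, 330 and 463, and its signalling partner Csf2rb read 238, 305, 351 and 562. For all 4 of these genes the LKO HFD array was the highest and the F/F chow array the lowest. Il11ra1, the IL-11 receptor, differed by -0.28 and -0.35.

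Several dim genes passed the 2-fold limit on diet only at levels where spots are least precise. Il20, a keratinocyte cytokine of the IL-10 family, was well above background on chow (21.3 and 15.8) and not on HFD, at least 2.73-fold lower for F/F and at least 2.43-fold lower for LKO. Il21, a helper T cell product, was 15.7 in LKO chow and 7.38 in LKO HFD (-1.09). Il21r, its receptor, was 35.4 in LKO HFD and not well above background in LKO chow, at least 3.79-fold higher. Il18r1, a receptor chain of IL-18, was 40.3 in LKO chow and 11.4 in LKO HFD (-1.82, and -0.79 under normexp). Il17rd, an inhibitory receptor, was 19.4 in LKO chow and 8.98 in LKO HFD, whereas its second probe was 0.60 higher. Under normexp the differences in LKO were 0.22 for Il21r, -0.42 for Il21 and -0.52 for Il17rd, and those of Il20 were -0.38 in F/F and -0.54 in LKO.

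**Figure D3:**
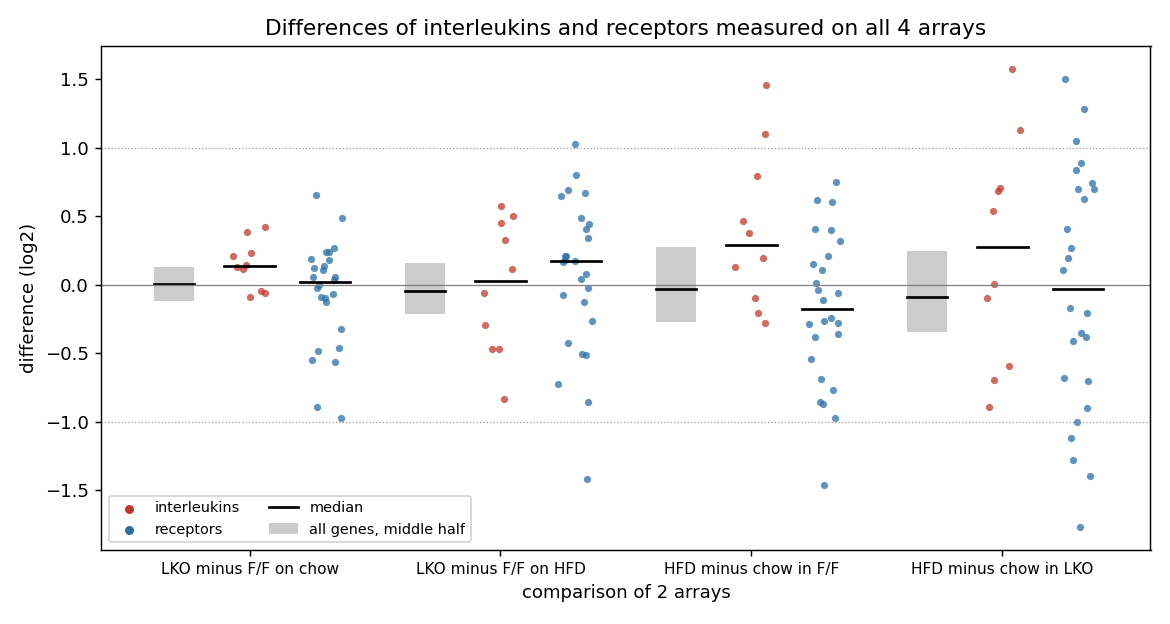
Difference (log2) of the 10 interleukins and 26 receptors well above background on all 4 arrays, in each of the 4 comparisons, with the median of each class. The grey bar spans the 25th to the 75th percentile of all 13981 such genes and dotted lines mark 2-fold. The receptors spread on both sides of 0, most in HFD against chow in LKO, where the lowest, Il1r1, is at -1.77 and the highest is Il7r.

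LKO against F/F on HFD separated few of these genes. Of the 49 with a value, LKO was at least 2-fold higher in 2 and lower in 1 (6.12%), beside 2.36% and 1.91% of all genes (4.26%). Over the members measured on every array, the median was 0.03 for the 10 interleukins and 0.17 for the 26 receptors, beside -0.04 for all genes so measured. Of these receptors 16 were higher and 10 lower in LKO.

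Il7r, the IL-7 receptor of naive and memory T cells and innate lymphoid cells, read 48.3 and 35 on chow and 48.7 and 99.2 on HFD. The LKO HFD array stood alone, 1.03 above F/F HFD and 2.84-fold above LKO chow, while the F/F arrays differed by 0.01. Some other lymphocyte receptor chains were also highest on this array. Il2rb, shared by IL-2 and IL-15, read 70, 56.0, 58.1 and 93.7, and Il21r read 20.0 in F/F HFD and 35.4 in LKO HFD. Il2rg, the common gamma chain, read 291, 273, 363 and 420. Il7, the ligand, was dim and well above background in LKO HFD only, at 13.3, and its second probe was not on any array.

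Il12rb1, shared by the receptors of IL-12 and IL-23, went the opposite way. It read 197, 133, 135 and 50.6, with differences of -1.42 for LKO against F/F on HFD and -1.40 for HFD against chow in LKO. Il27, a macrophage cytokine related to IL-12, read 515, 569, 425 and 307, lowest on the same array. Under normexp the Il12rb1 differences were -0.91 and -0.91, and the Il7r difference on HFD was 0.53.

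Il6, the main inducer of the hepatic acute-phase response, read 13.9 and 8.64 on chow and 3.33 and 33.4 on HFD, and only the first and the last were well above background. In LKO HFD it was at least 4.27-fold above F/F HFD and at least 3.58-fold above LKO chow. A second probe for Il6 was not well above background on any array. With the mean of both probes the Il6 differences were 0.37 and 0.11, and under normexp 0.60 and 0.29.

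LKO against F/F on chow took 1 member past 2-fold, and measured differences ran from -0.98 (Il1r2) to 0.65 (Il17rb). Of the 46 with a value, LKO was at least 2-fold higher in 1 and lower in 0 (2.17%), beside 1.11% and 1.03% of all genes (2.14%). Over members measured on every array the medians were 0.14 for interleukins, 0.02 for receptors and 0.01 for all genes so measured. The 25th to the 75th percentile spanned -0.27 to 0.17 for receptors, beside -0.12 to 0.13 for all such genes. The 1 gene was Il18r1, the ligand-binding chain of the IL-18 receptor, which read 40.3 in LKO chow, 9.59 in F/F HFD and 11.4 in LKO HFD and was not well above background in F/F chow, so that LKO chow was at least 4.65-fold higher. Its LKO chow value stood apart from the other 3 arrays, its second probe was not well above background on any array, and the partner chain Il18rap was on none either. Under normexp the Il18r1 difference was 0.59, and with the mean of both probes 0.49. The genotype comparisons on chow and on HFD also use different arrays. Among the 38 genes, 18 were higher in LKO on both diets, 11 lower on both and 9 opposite (76.3% the same way, beside 54% of all genes). None was at least 2-fold different in the same direction on both, beside 0.1% of all genes.

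Among the genes downstream of these receptors, the signal carriers were nearly level and the feedback inhibitors were not. None of 11 JAK kinases and STAT factors and none of 11 genes of MyD88 and IRAK signalling was 2-fold different in any of the 4 comparisons. The SOCS genes, which are induced by JAK and STAT signalling and shut receptors off, were lower on HFD in 7 of 8 cases in F/F (median -1.01, 4 at least 2-fold) and in 6 of 8 in LKO (median -0.38, 2 at least 2-fold). In LKO against F/F they were lower in 7 of 8 on chow (median -0.48) and higher in 8 of 8 on HFD (median 0.32, 3 at least 2-fold). Socs3, a target of IL-6 signalling, read 7856 and 2421 on chow and 482 and 1164 on HFD. Cish, a target of STAT5, read 2357, 1359, 242 and 602, and Socs2 read 717, 430, 108 and 287. All 3 had the same order of arrays, with F/F chow highest and F/F HFD lowest.

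**Figure D4:**
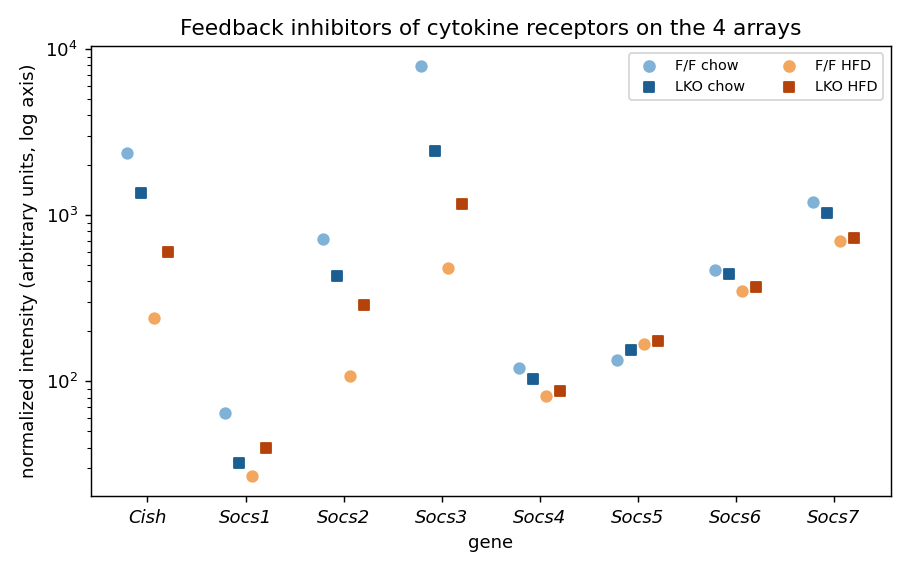
Normalized intensity (log axis, arbitrary units) of the 8 SOCS genes on the 4 arrays. Socs3, Cish, Socs2 and Socs1 are spread over the arrays with F/F chow highest and F/F HFD lowest, whereas Socs4, Socs5, Socs6 and Socs7 lie closer together.

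Among genes of the IL-17 response, 1 of 7 was 2-fold lower on HFD in each genotype. It was Cxcl1, a neutrophil chemoattractant also induced by IL-1 and IL-6, which read 25513, 12797, 1750 and 4020, in the same order of arrays as Socs3. It was also the 1 gene of that list 2-fold different, and higher, in LKO against F/F on HFD. Of 11 related cytokines without an Il symbol, 2 were 2-fold lower on HFD in both genotypes, Tnf (322, 217, 63.2 and 52.0) and the neurotrophic cytokine gene Cntf (257, 209, 99.5 and 102). Of 11 partner chains, 9 of 11 with a value were higher on HFD in LKO (median 0.79). Those at least 2-fold higher were Csf2rb2, Csf2ra and, as a bound, the interferon lambda receptor Ifnlr1, and Lifr was lower.

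Markers of immune cells moved with several of these results, and in bulk RNA fewer cells of a type and less RNA per cell cannot be told apart. The summed intensity of 8 macrophage and monocyte markers was 9671 and 9581 on chow and 13372 and 18151 on HFD, the order seen for Il18bp, Il10ra, Il10rb and Il34 apart from the chow arrays. All 8 were higher in LKO HFD than in LKO chow (median 1.05, Ccr2 as a bound) and than in F/F HFD (median 0.60). The sum of 6 Kupffer cell markers was 22143 and 20858 on chow and 28513 and 36012 on HFD. Of them 4 were higher and 2 lower in LKO HFD against LKO chow, with Marco (5166 against 2067) and Timd4 (177 against 81.5) lower.

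The lymphocyte lists stood beside Il7r, Il2rb and Il21r, but not beside Il12rb1 and Il12rb2. These receptor chains were lowest in LKO HFD, at 50.6 and 11.5, against 135 and 16.4 in F/F HFD. Of 7 T cell markers with a value, 6 were higher in LKO than in F/F on HFD (median 0.89), Cd8a as a bound. Of 4 NK cell markers with a value all were higher (median 1.07), while Ncr1 and Eomes were not well above background on any array. The summed T cell intensity, 5288, 4701, 3839 and 3593, went the other way because the Cd4 probe, at 2838 to 4646, carries most of it. The summed NK cell intensity was 268, 222, 393 and 807. Of 6 hepatocyte markers, all 6 were lower on HFD in both genotypes (medians -0.30 and -0.54), beside the lower Il6ra, Il1r1 and Il15ra. Of 6 neutrophil markers, all were lower in LKO on both diets (medians -0.63 and -0.44), beside the decoy receptor Il1r2 on the probe used.

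Exocrine pancreas markers also differed between the arrays, with a summed intensity of 5491, 3323, 2866 and 10749. Of 6 with a value, all were lower in LKO than in F/F on chow (median -0.90) and higher on HFD (median 1.92). Members with these directions included Il7r, Il2rb, Il21r and Il6, with the chow value of Il21r and both values of Il6 as bounds. The medians of several lists, among them the SOCS genes and the T cell and NK cell markers, had these directions too. The part of any of these cell types in the results was not tested.

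Different probes of a gene gave a second view of the same RNA. Of the 82 genes, 39 had more than 1 probe. Second probes measured on both arrays differed in sign from the probe used in 6 of 17 cases for genotype on chow, 4 of 17 for genotype on HFD, 3 of 17 for diet in F/F and 6 of 18 for diet in LKO, with median gaps of 0.14 to 0.21. The widest gap was 1.72, in Il17rd. For Il4ra, the shared receptor of IL-4 and IL-13, the probe used read 427, 503, 409 and 542 and the other 369, 335, 258 and 166, so that diet in LKO gave 0.11 on the first and -1.01 on the second. Neither Il4ra nor Il17rd, which is counted above among the genes lower on HFD in LKO, had a direction shared by its probes there. Il1rn, Il15, Il15ra, Il6ra, Il10ra and Il18bp had the same direction of the diet difference on every measured probe in both genotypes.

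**Figure D5:**
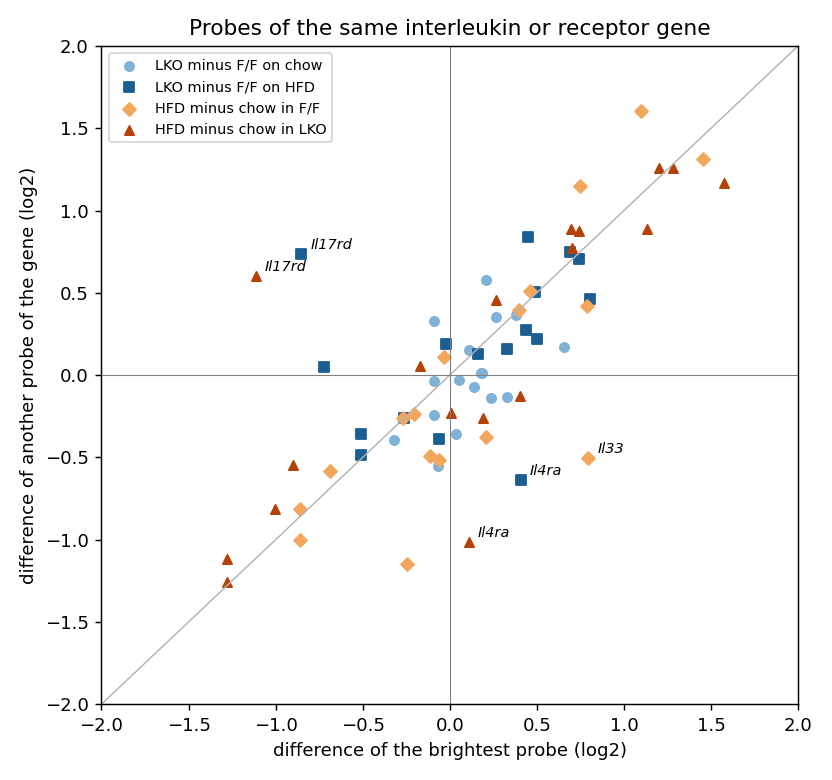
Difference (log2) of the probe used (x axis) against that of another probe of the same gene (y axis), for probes measured on both arrays, in the 4 comparisons. The line marks equal differences, and the named genes, Il17rd, Il4ra and Il33, lie at least 1 log2 unit from it.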

How the data were processed

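Labelled Cy3 cRNA of liver, 1 sample per condition, was hybridised to 1 slide and scanned once. The authors deposited, for each spot, the processed intensity of Agilent Feature Extraction (version 12.0.3.1, per the submitters' processing notes), after background subtraction, with median spot and local background intensity and flags. They also deposited a value table, which was each array's processed intensity times 1 factor. From the deposited intensity, control and outlier spots were left out, spots of a probe averaged, and log2 of the signal taken minus each array's 75th percentile (Python 3.11.15, pandas 2.3.3, numpy 2.4.6). Accessions were matched to symbols of RefSeq on GRCm38.p6 (33767 of 56605 probes), and the probe with the highest mean stood for its gene. Weak spots are the least precise, and background subtraction spreads their ratios.

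Genes named are those at least 2-fold different in any comparison, the 5 brightest of each class and their partners, 25 genes before partners. Members, lists and motifs were chosen with earlier results of these data known. No test was made. Alternatives were normexp (limma 3.58.1, R 4.3.3, offset 50), quantile normalization, another percentile, the value table, other filters, the mean of probes and 1.5-fold. The counting was tested on simulated data in which only bright genes were changed, so dim genes and bounds were not covered.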

Additional observations from a re-analysis of the deposited data

Results flagged for a closer look

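Some genes differed in opposite directions under the same contrast, and none of these differences between contrasts could be tested with 1 array per condition. Il6 differed between LKO and F/F by -0.57 on chow and 2.10 on HFD, and between HFD and chow by -0.83 in F/F and 1.84 in LKO, all as bounds on 1 probe. Il7r differed between LKO and F/F by -0.47 on chow and 1.03 on HFD. Il21 differed between HFD and chow by 0.48, a bound, in F/F and by -1.09 in LKO.

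Other values came from probes that did not stand for their gene. Second probes for Il10ra and Il15ra differed between HFD and chow in F/F by 1.15 and -1.0, in the direction of the probe used. A second Il1rap probe differed by -1.15 there, against -0.24 on the probe used, and a second Il4ra probe by -1.01 in LKO. A second Il22 probe was well above background in LKO chow only, at 78.2, with bounds of 3.17 against F/F chow and -3.59 for HFD against chow in LKO, where the probe used read 18.1 in LKO chow and 18.6 in F/F chow. The labels give no replicate for that array.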

How the results depend on the processing

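No named gene's difference past 2-fold changed sign in any alternative run. Those of Il6 and Il20 and some others were bounds, whose sign could change only in the run with no filter. The value table and the filter for genes measured on every array cannot change a value, yet are counted in the totals here. Of 475 alternative values of differences under 2-fold, 16 changed sign, 8 of them with the mean of probes and 5 under normexp. The widest was Il1rap for LKO against F/F on HFD, -0.72 and then 0.32 with the mean of probes. That mean includes a probe not well above background on any array, which read 1.63 in F/F HFD and 5.03 in LKO HFD. Il21r for diet in F/F was 0.52 and then -0.05 under normexp. Counts and class medians moved, and the cause was not tested. Counts are given as higher and lower members. Under normexp they were 0 higher for LKO on chow, 0 and 0 for LKO on HFD, 0 and 1 for HFD in F/F, and 4 and 2 for HFD in LKO. With no filter they were 2 and 4, 7 and 3, and 8 and 9 in the first 3 comparisons, and with a 1.5-fold limit 3 and 2, 10 and 6, 9 and 9, and 18 and 14. With the mean of probes LKO on chow had 1 lower, LKO on HFD 1 higher and HFD in LKO 5 lower. Quantile normalization gave 1 higher for LKO on HFD. With genes measured on every array only, LKO on chow had 0 higher, LKO on HFD 1 higher, HFD in F/F 1 lower and HFD in LKO 5 lower.

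The median of interleukins with a value, bounds included, was 0.14 for LKO on HFD, 0.19 for HFD in F/F and 0.41 for HFD in LKO. The first reversed to -0.023 under normexp, -0.27 with no filter and -0.21 with the mean of probes. The second reversed to -0.10 under normexp and -0.15 with no filter, and the third to -0.32 with no filter. The third was 0.26 under quantile normalization, 0.034 with the mean of probes and 6.8e-05 under normexp. On genes measured on every array the interleukin medians were 0.14 and 0.027 for LKO on chow and on HFD and 0.29 and 0.27 for HFD in F/F and in LKO. The receptor median for LKO on HFD, 0.18, reversed to -0.10 with no filter. The receptor median for HFD in F/F, -0.06, was -0.18 under normexp, -0.18 on genes measured on all arrays and -0.27 with the mean of probes. With no filter it was 0.12 for LKO on chow and -0.37 for HFD in LKO. With no filter the median of all genes moved to -0.12 in LKO on HFD, -0.12 for HFD in F/F and -0.21 for HFD in LKO.

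The deposited value table changed none of 99 values of named genes. It could not, being each array's processed intensity times 1 factor, rescaled to the same percentile. Normexp moved 43 of 95. Normexp used median spot signals. A block for slide or scan was not run, since all arrays shared 1 slide and 1 scan. No paired analysis was possible because each condition has 1 array and no replicate number. Without replicates, neither mice nor arrays give a spread, and differences near the limit of detection rest on single spots.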
